A study of Mus musculus with 8 samples.

Results

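The interferon response and antigen presentation genes were followed in mouse mammary tumor organoids with and without SOX4. The group holds 39 genes, picked by name as interferon-stimulated genes and as genes of the MHC class I pathway, out of 38293 gene identifiers counted in bulk RNA-seq. All 39 were among the 11682 genes that passed the filter on low counts in bulk. In the single-cell data 38 of them had a UMI (a unique molecular identifier, the tag that marks 1 captured transcript) in the control library and 39 in each of the SOX4KO libraries, out of 15140 genes with a UMI. The organoids had been grown from a mammary tumor of mice carrying the MMTV-PyMT, MMTV-Cre and Ecadherin-mCFP alleles, in which the MMTV promoter drives the polyoma middle T oncogene and Cre in mammary epithelium and E-cadherin is tagged with a fluorescent reporter, and control and SOX4KO organoids shared all of these alleles. SOX4, a transcription factor, was knocked out with CRISPR/Cas9, which left small insertions or deletions. Organoids were cultured in matrigel with the growth factor FGF2 and collected 4 days after they were split as single cells. Bulk RNA-seq covered 2 control lines (WT1 and WT3) and 3 SOX4KO lines (H7, M4 and H4), each sequenced once, so a line and its library cannot be told apart. Single-cell RNA-seq covered 1 control library (GR17) and 2 SOX4KO libraries (GR18 and GR19), and the labels do not say which bulk line each of them came from. With 8 libraries in all, p-values over the bulk lines measure the spread between lines of the same tumor model.

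Type I and type II interferons bind receptors on the cell surface, and JAK kinases then activate transcription factors that bind interferon-stimulated response elements (ISRE), as the complex with STAT2 and IRF9 does, or gamma-activated sites (GAS). The genes switched on in this way include cytoplasmic RNA sensors, antiviral effectors, ubiquitin-like modifiers, guanylate-binding proteins and the parts of the class I pathway, in which the immunoproteasome cuts peptides, the TAP transporter carries them into the endoplasmic reticulum and class I heavy chains present them at the surface together with beta-2-microglobulin. Epithelial cells, mammary tumor cells included, can make this response themselves.

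Many of the promoters hold letters of the ISRE or GAS. Most of the genes were picked as interferon-stimulated, so a high share of these letters goes with the choice and is no separate finding. RefSeq windows of GRCm38.p6 from 250 bases before to 50 bases after the transcription start were matched for 33 of the 39 genes. The ISRE letters searched were GAAA, any 2 bases and GAAA, and the GAS letters were TTC, any 3 bases and GAA, each on both strands. A gene was counted if any of its windows held the letters. The ISRE letters were found for 13 of 33 genes (39.4%), against 3.99% of 27025 genes. The GAS letters were found for 6 of 33 (18.2%), against 9.55% of all genes. Of the 33, 17 held at least 1 of the motifs and 2, Bst2 and Gbp7, held both. A match is a description of the letters and not evidence of binding. Stretches of 110 bases, from 140 to 31 bases before the start, are shown for 7 genes to make these layouts visible, read 5′ to 3′ on the strand of the gene, with the ISRE and GAS matches in capitals.

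Isg15 (chr4:156200849-156200958, minus strand) held 3 overlapping ISRE matches, the first starting 78 bases before the start.
Isg15: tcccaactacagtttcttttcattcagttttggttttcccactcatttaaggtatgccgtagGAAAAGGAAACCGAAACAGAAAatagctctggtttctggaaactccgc
Ifit1 (chr19:34640749-34640858, plus strand) held 2 ISRE matches on the opposite strand.
Ifit1: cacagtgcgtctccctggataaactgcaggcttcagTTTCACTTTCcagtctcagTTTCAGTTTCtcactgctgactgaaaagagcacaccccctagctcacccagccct
Rsad2 (chr12:26456483-26456592, minus strand) held 1 ISRE match.
Rsad2: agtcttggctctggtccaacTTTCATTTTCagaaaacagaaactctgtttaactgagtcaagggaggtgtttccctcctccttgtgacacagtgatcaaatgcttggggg
Bst2 (chr8:71537503-71537612, minus strand) held 1 GAS match that ran into 2 ISRE matches.
Bst2: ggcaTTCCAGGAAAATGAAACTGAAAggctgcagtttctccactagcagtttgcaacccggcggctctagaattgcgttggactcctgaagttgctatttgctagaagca
Gbp7 (chr3:142530196-142530305, plus strand) held 2 GAS matches and 1 ISRE match.
Gbp7: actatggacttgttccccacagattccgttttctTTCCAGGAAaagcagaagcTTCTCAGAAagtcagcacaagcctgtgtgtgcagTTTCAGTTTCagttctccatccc
B2m (chr2:122147547-122147656, plus strand) held 1 ISRE match, 139 bases before the start.
B2m: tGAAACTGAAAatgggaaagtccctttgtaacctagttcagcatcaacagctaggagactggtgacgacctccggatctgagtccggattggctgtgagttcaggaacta
Irf1 (chr11:53769874-53769983, plus strand) held 1 GAS match and no ISRE match.
Irf1: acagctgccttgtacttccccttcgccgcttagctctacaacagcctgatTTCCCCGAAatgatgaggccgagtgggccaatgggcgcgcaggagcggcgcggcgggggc

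The bulk libraries held 3050323 to 4678497 reads on genes, the fewest in M4, and the single-cell libraries held 7714119 to 8296953 UMIs in 362 to 369 cells. Sox4 itself was 295 and 374 CPM in the control lines WT1 and WT3 and 199, 179 and 299 CPM in H7, M4 and H4 (CPM, counts scaled to a common library size, with TMM factors in bulk), so the lines overlapped and the log2 fold change of -0.57 (SE 0.25, adjusted p = 0.277, edgeR) was not called. In single cells Sox4 stood at 118 CPM in GR17, 82.5 in GR18 and 110 in GR19. An indel need not lower the transcript, so these levels do not check the knockout. Mammary epithelial markers were present in every library, whereas defining markers of white blood cells were at or near 0: of 12 immune markers Lyz2, Adgre1, Tyrobp, Cd3e, Cd3g and Nkg7 were among those that had no read in any bulk line, and the 12 together summed to 1.79 to 15.1 CPM, mostly Cd68.

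In bulk the 39 genes had lower CPM in SOX4KO than in control organoids nearly throughout, with 37 of 39 log2 fold changes below 0, but the SOX4KO lines differed among themselves and 1 gene was called. The median log2 fold change (SOX4KO minus control) was -0.73 over the 39 genes and 0.01 over all genes tested. At an adjusted p under 0.1 (edgeR quasi-likelihood test, Benjamini-Hochberg over 11682 genes) 1 of 39 was lower, Psmb8, where 2.17% of all genes were called lower, and 0 of 39 were higher, where 4.10% of all genes were called higher. At an unadjusted p under 0.05 the counts were 15 lower (background 7.68%) and 0 higher (background 10.4%). DESeq2 called 7 of 39 lower at the same adjusted threshold (2.76% of all genes) and 0 higher (5.79%). In 15 of the 39 genes all 3 SOX4KO lines lay below both control lines, against 17.9% of all genes, and in 0 of 39 they lay above both, against 19.0% of all genes. In bulk RNA, fewer cells expressing a gene and less RNA per cell cannot be told apart.

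**Figure D1:**
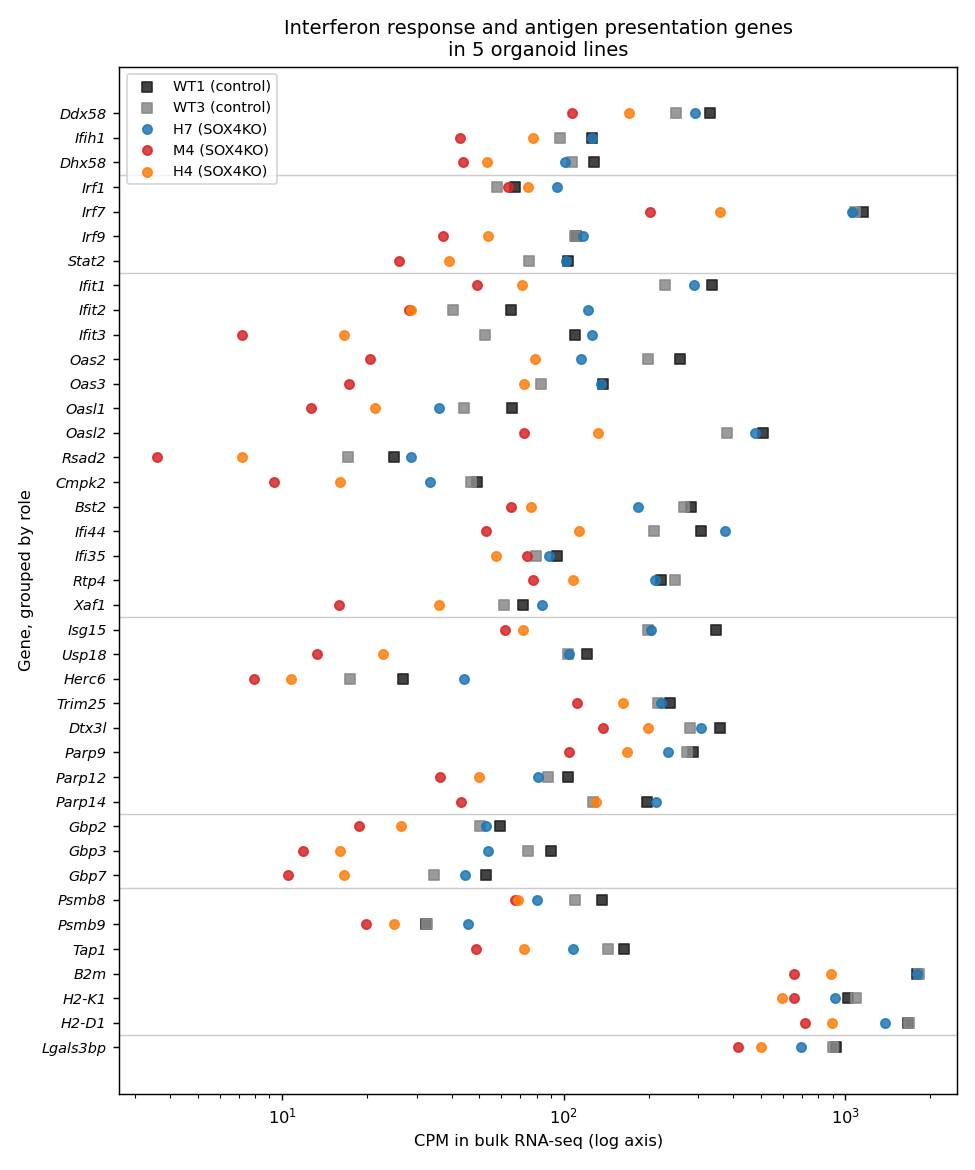
Bulk level of each of the 39 genes in CPM on a log axis, 1 row per gene and 1 point per line, with control lines as squares and SOX4KO lines as circles. M4 (red) has the lowest value in 36 of the 39 rows, while H7 (blue) lies among or beside the control squares in most rows.

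The 3 cytoplasmic RNA sensors were all lower on average and none was called. Ddx58, which encodes RIG-I, was 331 and 251 CPM in the control lines WT1 and WT3 and 293, 107 and 171 CPM in H7, M4 and H4. H7 lay between the control lines and the other SOX4KO lines lay below them. The group means were 291 ± 57.0 CPM in control (SD, n = 2) and 190 ± 94.7 CPM in SOX4KO (SD, n = 3), a log2 fold change of -0.61 (SE 0.37, adjusted p = 0.439, edgeR). Dhx58, the helicase LGP2, was 128, 107, 101, 43.9 and 53.2 CPM in the same order of lines, without overlap of the groups, and its log2 fold change was -0.82 (SE 0.32, adjusted p = 0.234, edgeR). Ifih1, which encodes MDA5, was 126 and 97.0 CPM in the control lines and 126, 42.8 and 77.6 CPM in H7, M4 and H4.

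Among the transcription factors the contrast between SOX4KO lines was plain in Irf7, the factor that amplifies type I interferon transcription. Irf7 was 1151 and 1084 CPM in the control lines WT1 and WT3 and 1057, 202 and 357 CPM in H7, M4 and H4. H7 lay just under the controls and the other SOX4KO lines far below, so that the log2 fold change of -1.05 had an SE of 0.56 (adjusted p = 0.385, edgeR). Irf9, the DNA-binding part of the type I response complex, was 111 and 109 CPM in the control lines against 116.6, 37.1 and 53.6 CPM, and its partner Stat2 was 103 and 75.1 against 102, 25.9 and 39.04 CPM. Irf1, the factor of the interferon gamma response, went the other way: it was 67.0 and 57.8 CPM in the control lines and 94.7, 63.4 and 74.5 CPM in H7, M4 and H4, a log2 fold change of 0.32 that was not called (SE 0.21, adjusted p = 0.493, edgeR).

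Of the 14 antiviral effectors 13 had a log2 fold change below 0, and 0 were called. Oas2, a synthetase of the oligoadenylate messenger that activates RNase L, was 258 and 199 CPM in the control lines WT1 and WT3 and 115, 20.5 and 78.8 CPM in H7, M4 and H4. All SOX4KO lines lay below the controls and the log2 fold change of -1.66 (SE 0.52, adjusted p = 0.14, edgeR) was the largest in size of the 39. Oasl2, of the same family, was 510, 379, 479, 72.0 and 132 CPM, with H7 between the control lines, and its log2 fold change was -0.96 (SE 0.64, adjusted p = 0.494, edgeR). Bst2, tetherin, which holds budding virus at the membrane, was 283, 268, 184, 64.8 and 76.2 CPM, and its log2 fold change was -1.34 (SE 0.39, adjusted p = 0.117, edgeR). Cmpk2, the neighbour of viperin on the chromosome and a nucleotide kinase of mitochondria, was 49.2 and 46.8 CPM against 33.4, 9.36 and 16.05, and Oasl1 was 65.5 and 44.2 against 36.0, 12.6 and 21.3. In these last genes the groups did not overlap.

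In most other effectors M4 and H4 lay below the other 3 lines. Ifit3, of the family that binds viral RNA without host cap marks, was 110 and 52.4 CPM in the control lines WT1 and WT3 and 126, 7.20 and 16.5 CPM in H7, M4 and H4. Ifit1 was 335, 228, 290, 49.0 and 71.1 CPM, and Ifit2 was 64.7, 40.4, 121, 28.1 and 28.7 CPM, which gave Ifit2 a log2 fold change of 0.19. H7 was at or above WT3 in all 3 of these family members. Rsad2, viperin, was 24.9, 17.1, 28.7, 3.60 and 7.18 CPM. Ifi44 and Xaf1 had the same order of lines, with H7 highest at 373 and 83.5 CPM and M4 lowest at 52.9 and 15.8 CPM. Oas3 was 138 and 83.2 CPM in the control lines and 136, 17.3 and 72.3 CPM in H7, M4 and H4. Rtp4 was 222 and 249 CPM in the control lines and 211, 77.8 and 108 CPM in H7, M4 and H4, and Ifi35 ran from 57.5 CPM in H4 to 94.5 CPM in WT1. Reads of Ifit3 can be split with a near-identical copy, which makes its level less certain.

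The 8 enzymes and modifiers of the ubiquitin-like and ADP-ribose systems were all lower on average, with 0 called. Isg15, the ubiquitin-like protein that is attached to other proteins during the response, was 347 and 200 CPM in the control lines WT1 and WT3 and 204, 61.9 and 71.4 CPM in H7, M4 and H4. WT3 and H7 were level and the log2 fold change was -1.27 (SE 0.48, adjusted p = 0.217, edgeR). Usp18, the protease that removes ISG15, was 121, 103, 104, 13.3 and 22.8 CPM. Dtx3l, a ubiquitin ligase, was 360, 280, 308, 138 and 199 CPM, a log2 fold change of -0.57 (SE 0.31, adjusted p = 0.392, edgeR), and its partner Parp9 was 288, 274, 234, 104 and 168 CPM without overlap of the groups. Parp12 did not overlap either, at 80.9, 36.4 and 49.8 CPM against 103 and 87.8. For Parp14, Trim25 and Herc6 the log2 fold changes were -0.32, -0.45 and -0.05 and none was called. Herc6 ran from 7.92 CPM in M4 to 44.4 in H7.

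The 3 guanylate-binding proteins, GTPases that attack the membranes of intracellular pathogens, were lowest in M4 in every case. Gbp3 was 90.3 and 74.9 CPM in the control lines WT1 and WT3 and 53.7, 11.9 and 16.05 CPM in H7, M4 and H4, so the groups did not overlap, and the log2 fold change was -1.58 (SE 0.52, adjusted p = 0.155, edgeR). Gbp2 was 59.3 and 50.4 CPM against 53.0, 18.7 and 26.3, and Gbp7 was 52.8 and 34.5 against 44.6, 10.4 and 16.5, both with H7 inside the range of the controls.

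The antigen presentation genes held the only member called. Psmb8, a catalytic subunit of the immunoproteasome, was 136 and 109 CPM in the control lines WT1 and WT3 and 80.1, 67.0 and 69.0 CPM in H7, M4 and H4. All SOX4KO lines lay below both controls with little spread among them (72.0 ± 7.08 CPM, SD, n = 3, against 123 ± 19.0 CPM, SD, n = 2), and Psmb8 fell by 0.77 on the log2 scale (SE 0.18, adjusted p = 0.0626, edgeR). The call was lost without WT1 (adjusted p = 0.434), without WT3 (0.31) and without H4 (0.117, all edgeR). Tap1, a subunit of the peptide transporter, was 163 and 143 CPM against 107, 48.6 and 72.3, a log2 fold change of -1.002 (SE 0.29, adjusted p = 0.114, edgeR). The class I heavy chains H2-K1 (1024 and 1089 against 919, 657 and 596 CPM) and H2-D1 (1670 and 1686 against 1382, 718 and 893 CPM) also had no overlap between groups, though reads of class I genes can be shared among near-identical copies. B2m, the light chain, was 1796 and 1831 CPM in the control lines WT1 and WT3 and 1802, 655 and 891 CPM in H7, M4 and H4, a log2 fold change of -0.70 (SE 0.38, adjusted p = 0.394, edgeR) in which H7 was level with the controls. Psmb9, another immunoproteasome subunit, was 32.4 and 32.7 CPM against 45.7, 19.8 and 24.9. Lgals3bp, a secreted glycoprotein induced by interferon, was 923 and 906 CPM against 696, 414 and 501, a log2 fold change of -0.77 (SE 0.24, adjusted p = 0.138, edgeR).

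Taking the lines 1 at a time, the median level of the group was set apart in M4 and H4 and not in H7. The 39 genes together made up 12178 and 11000 CPM in the control lines WT1 and WT3 and 10789, 4164 and 5581 CPM in H7, M4 and H4. Relative to the mean of the controls on the log2(CPM + 1) scale, the median of the 39 was -0.03 in H7, -1.58 in M4 and -1.02 in H4, where the medians of all genes tested were -0.01, 0.01 and 0.00. M4 had the lowest CPM of the 5 lines in 36 of the 39 genes, against 25.5% of all genes. At least 2-fold higher CPM in H7 than in M4 was found for 32 of 39 genes (3.62% of all genes), and in H7 than in H4 for 18 of 39 (3.10%), although all 3 lines are SOX4KO. The same count was 35 for WT1 over M4 (4.93%), 32 for WT3 over M4 (5.03%) and 6 for H4 over M4 (3.43%). Between the antigen presentation genes and the rest the shift in M4 differed in size, with medians of -1.04 and -1.85. In H7 these medians were -0.24 and 0.02.

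**Figure D2:**
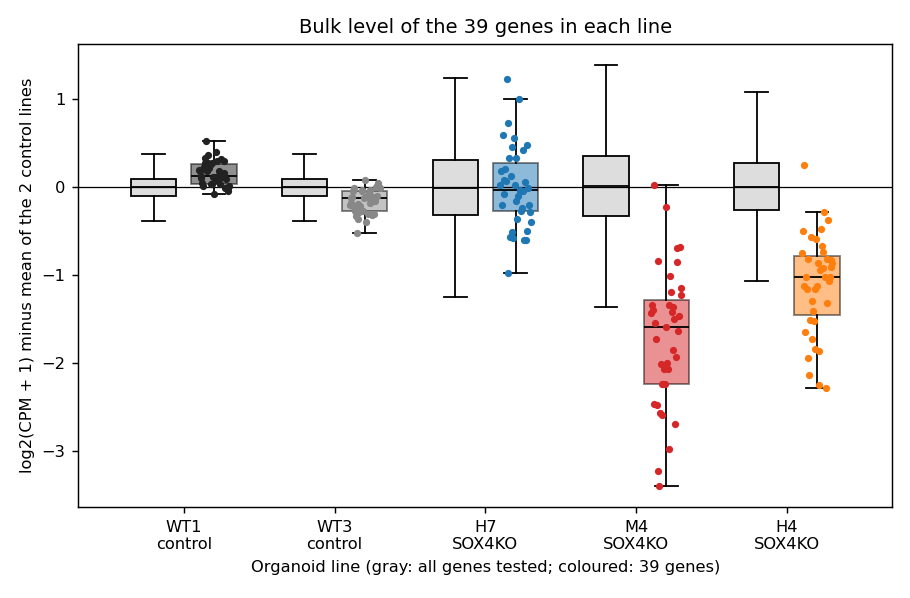
Difference of log2(CPM + 1) from the mean of the 2 control lines, by line, for all genes tested (gray boxes) and for the 39 genes (coloured boxes with a point per gene); boxes show quartiles and median, whiskers reach the last value within 1.5 times the box length. The coloured medians are -0.03 in H7, -1.58 in M4 and -1.02 in H4, while the gray medians stay near 0 in all lines.

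The number called depended on H7. Without H7 the count of members called lower was 28 of 39, where 2.07% of all genes were called lower, and the median log2 fold change was -1.27. Without M4 the count was 2 (Psmb8 and Oas2, background 3.29%) and the median -0.49. Without H4, WT1 or WT3 the count was 0, where 2.60%, 0.308% and 0.218% of all genes were called lower. Other measures also moved with the lines. The summed level of the 15 basal markers was 2276 CPM in WT1 and 1506 in WT3 against 5423 in H7, 7655 in M4 and 2787 in H4. Sparc alone was 1302 and 732 CPM in WT1 and WT3 and 3763, 5342 and 1692.5 CPM in H7, M4 and H4. Of the 12 basal markers tested 11 had a log2 fold change above 0 and 1 below, and 4 were called higher. Krt14 overlapped between the groups, at 235 and 240 CPM against 107, 601 and 187. The 10 cycling markers summed to 682 and 661 CPM against 334, 469 and 305, with 5 of 10 called lower. M4 also had the highest mitochondrial share of reads on genes (7.66%, the others 3.97% to 5.45%) and the highest share of reads not aligned to a single place (53.0%, the others 45.7% to 50.4%). Their part in the result was not tested.

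Upstream of the 39 genes, little was measured at the level of interferons themselves. Of 9 interferon ligand genes only Ifnb1 had any read, 0.40 CPM in WT3, and 0 passed the filter. None of the 6 receptor genes was called: Ifnar1, a chain of the type I receptor, was 59.8 and 83.8 CPM in the controls against 67.6, 49.3 and 70.7 CPM, and Ifngr2, a chain of the type II receptor, was 166 and 185 against 111, 116.6 and 137. The kinases Jak1, Jak2 and Tyk2 had log2 fold changes of 0.10, 0.27 and 0.26, Stat3 of -0.16, and none was called.

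Of 123 other genes of the pathway that were listed, 98 were tested, and 1 was called higher and 7 lower (all genes 4.10% and 2.17%). The gene called higher was Csf1, the growth factor of macrophages, at 60.6 and 54.4 CPM in the controls against 104, 89.6 and 99.6 CPM. The 7 called lower fell in all SOX4KO lines, H7 included. Nlrc5, the transactivator of class I genes, was 17.1 and 14.7 CPM against 7.31, 2.52 and 3.35, and fell by 1.82 on the log2 scale (SE 0.42, adjusted p = 0.0604, edgeR). H2-Q4, a non-classical class I gene, was 210 and 243 CPM against 132, 77.4 and 103 (log2 fold change -1.12, SE 0.23, adjusted p = 0.0426, edgeR). The others were Slfn2 with a log2 fold change of -1.55, Oas1a with -1.38, Oas1g with -1.35, H2-T22 with -1.05 and H2-T10 with -0.82, of which the Oas1 and class I genes share sequence with close copies. Of 18 further class I genes tested 3 were among these. The 18 ran from -1.12 to 1.59 with a median of 0.02, with 10 above 0 and 8 below, and the SOX4KO lines lay above both controls for 5 of them and below for 8. The 7 constitutive proteasome subunits ran from -0.25 to 0.15 with 0 called. Of 6 class II presentation genes H2-Aa was at 0 in every line and 2 passed the filter, both accessory genes of peptide loading with SOX4KO lines above both controls and neither called. H2-DMa was 3.88 and 3.19 CPM in the control lines and 8.87, 4.32 and 9.10 CPM in H7, M4 and H4 (log2 fold change 1.10, adjusted p = 0.242, edgeR), and H2-DMb1 was 10.9 and 11.4 CPM against 15.9, 21.2 and 15.1 (log2 fold change 0.64, adjusted p = 0.26, edgeR).

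The single-cell libraries gave the opposite direction. UMIs of the 39 genes made up 0.257% of all UMIs in GR17, 0.482% in GR18 and 0.452% in GR19. Their 95% exact binomial intervals, 0.254% to 0.261%, 0.477% to 0.486% and 0.448% to 0.457%, did not overlap. The 32 interferon genes outside antigen presentation and Lgals3bp carried 452 CPM in the control library and 1480 and 1371 CPM in the SOX4KO libraries, and the 6 antigen presentation genes 2025, 3043 and 2882 CPM. Intervals cover counting error only. With 1 control library no test between genotypes was run, and genotype, line and library cannot be told apart. UMIs of a single-cell library and reads of a bulk library are not on the same scale, and the comparison between the data types rests on directions.

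Gene by gene, the 95% exact Poisson intervals of both SOX4KO libraries lay above the control interval for 35 of the 39 genes, against 9.37% of all genes with a UMI, and below it for 0 of 39, against 9.52% of all genes. The 4 exceptions were named after their values were seen. Irf1 was 62.0 CPM in GR17, 55.4 in GR18 and 48.9 in GR19. Ifit2 was 8.30, 11.9 and 8.08 CPM and Rsad2 was 0.648, 1.62 and 6.51 CPM. Ifit3 had no UMI in GR17 and 11 and 3 UMIs in the others. Of the 25 members that averaged 20 CPM or more, 15 were at least 2-fold higher in both SOX4KO libraries on the log2(CPM + 1) scale (1.92% of all such genes) and 0 were at least 2-fold lower (0.317%). A gene can pass that average through the SOX4KO libraries alone. In the control library 13 of the 39 reached 20 CPM. Of those 13, 3 were 2-fold higher in both SOX4KO libraries: Ddx58, Rtp4 and Lgals3bp. The share of all genes under this rule was not counted, so 3 of 13 has no background here.

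**Figure D3:**
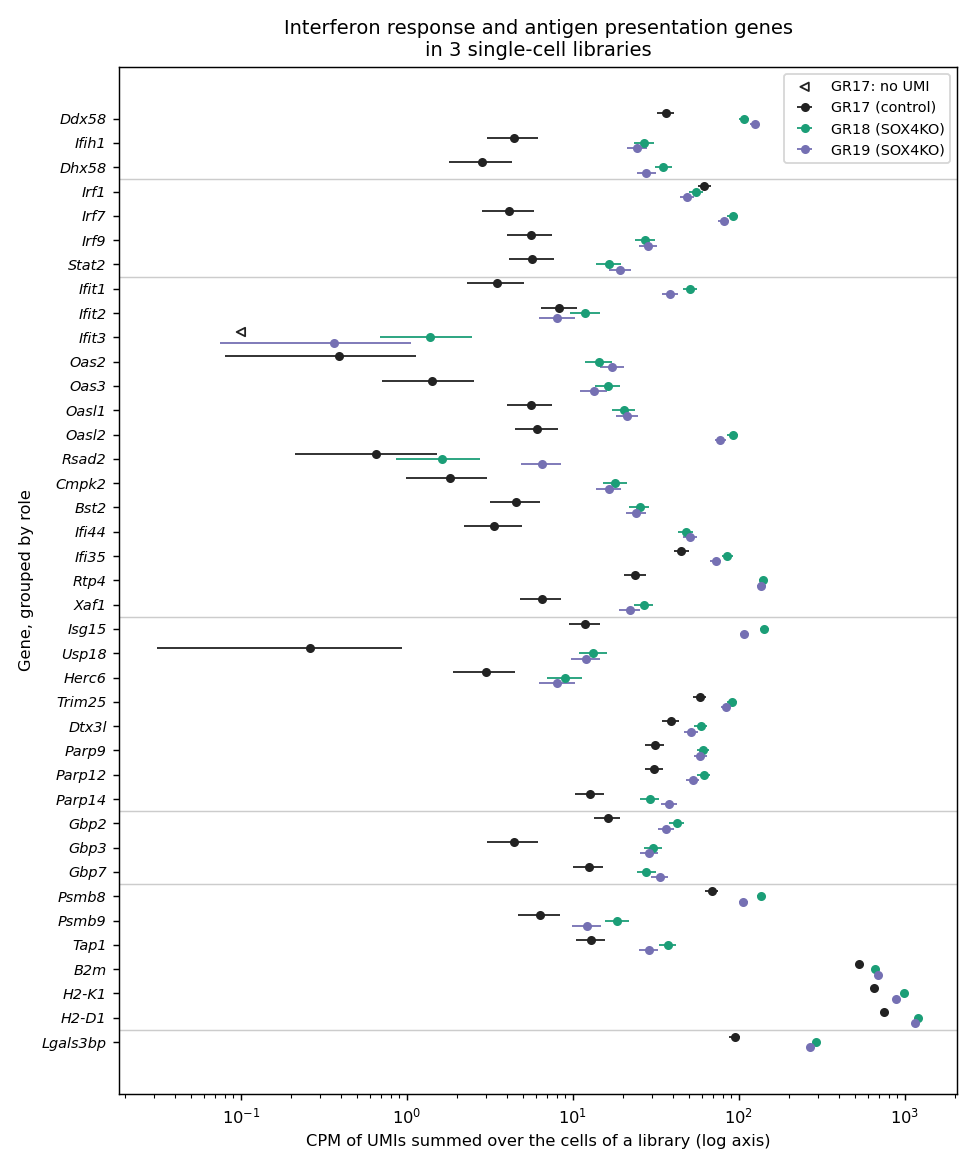
CPM of each of the 39 genes from UMIs summed over the cells of each single-cell library, on a log axis, with 95% exact Poisson intervals, in which an open triangle at the left marks a gene without a UMI in GR17. The SOX4KO libraries (green and purple) lie to the right of the control (black) in 35 of 39 rows without overlap of the intervals, with Irf1, Ifit2, Ifit3 and Rsad2 as the exceptions.

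The RNA sensors were among those set apart. Ddx58 was 36.4 CPM in GR17, 108 in GR18 and 125 in GR19. Dhx58 was 2.85, 35.1 and 27.7 CPM. Among the transcription factors Irf7 was at 4.15, 91.9 and 80.99 CPM in GR17, GR18 and GR19, a ratio of 22.2 and 19.5. The intervals of these levels were 2.84 to 5.86, 85.4 to 98.8 and 74.98 to 87.4 CPM. Irf9 was 5.57, 27.2 and 28.4 CPM.

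The effectors and modifiers differed widely in the size of the gap. Oasl2 was 6.09 CPM in GR17, 92.0 in GR18 and 77.3 in GR19. Ifi44 was 3.37, 47.9 and 51.1 CPM and Ifit1 was 3.50, 50.9 and 38.6 CPM. Rtp4 was 23.7, 140 and 137 CPM, while Ifi35 differed less, at 45.1, 85.4 and 72.4 CPM. Isg15 was 11.8, 143 and 108 CPM, and Parp14, an ADP-ribose transferase, 12.7, 29.1 and 38.0 CPM. The ligase Trim25 (58.1, 91.3 and 83.8 CPM), Dtx3l (38.9, 59.2 and 51.7 CPM), Parp9 (31.1, 60.9 and 58.7 CPM) and Parp12 (30.98, 61.6 and 52.8 CPM) were higher in both SOX4KO libraries by less than 2-fold. Gbp3 was 4.41, 30.6 and 28.8 CPM, Gbp2 16.2, 42.2 and 36.5 CPM and Gbp7 12.4, 27.7 and 33.4 CPM. The 14 members under 20 CPM on average included 11 with both intervals above the control. Among them Usp18 had 2, 106 and 99 UMIs and Oas2 had 3, 115 and 143 UMIs in GR17, GR18 and GR19, both named after their values were seen.

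The antigen presentation genes moved by smaller ratios. B2m was 530 CPM in GR17, 666 in GR18 and 693 in GR19. H2-K1 was 652, 985 and 884 CPM and H2-D1 was 755, 1200 and 1157 CPM, so that the ratios for these 3 ran from 1.25 to 1.59. Psmb8 was 68.7, 136 and 107 CPM, and Tap1 was 12.8, 37.2 and 28.7 CPM. Lgals3bp was 94.5, 294 and 268 CPM.

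Of the 123 other genes of the pathway listed, 106 had a row in the single-cell tables, and both SOX4KO intervals lay above the control interval for 40 and below it for 5 (all genes 9.37% and 9.52%). The other interferon-stimulated genes had 31 of 47 above and 1 below. The other class I presentation genes had 1 of 16 above, and the 8 of them that passed 20 CPM had median differences of 0.08 and -0.09 on the log2(CPM + 1) scale in GR18 and GR19. Nlrc5, called lower in bulk, was near 0 here at 1.30, 0.874 and 0.964 CPM. Of the 6 receptor chains 1 had both SOX4KO intervals above the control and 1 had both below. Ifnar1 was at 21.5, 19.6 and 21.1 CPM. Ifngr2 was lower in both SOX4KO libraries, at 164, 128 and 132 CPM. Of the ligands a single gene had a UMI. None of the 7 constitutive proteasome subunits had both intervals above the control, and 3 had both below. The immune markers summed to 3.11, 2.996 and 2.89 CPM in GR17, GR18 and GR19, at or near 0 in all 3. The cycling markers summed to 2536, 2008 and 2074 CPM. The luminal markers summed to 5010, 8532 and 10573 CPM and the basal markers to 5190, 5407 and 3083 CPM. Lcn2 alone was 2781, 5955 and 6264 CPM of the luminal sums. Of the 20 luminal markers 8 had both SOX4KO intervals above the control and 4 had both below. For the 15 basal markers these counts were 4 and 3. The part of these markers in the result was not tested.

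Cells were clustered without the 39 genes and the other pathway genes, and the clusters were named from mammary markers. Clusters A, B, C and F were basal-like and D and E luminal-like, and a further 15 cells in cluster G, with a median of 4867 UMIs, were left unnamed. GR17 held 338 basal-like and 27 luminal-like cells, GR18 256 and 108, and GR19 225 and 131. Nearly all GR17 cells lay in cluster A (329 cells), where GR18 had 5 and GR19 0, while the SOX4KO basal-like cells lay in B, C and F. The split of GR17 was not stable: at resolution 1.0 it was 214 basal-like and 151 luminal-like cells. Within basal-like cells both SOX4KO intervals lay above the control interval for 34 of 39 genes (8.86% of all genes) and below it for 0 (8.26%). Within luminal-like cells, with only 27 control cells, the counts were 19 (1.90% of all genes) and 0 (2.48%).

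Between basal-like and luminal-like cells of the same SOX4KO library the summed interferon genes differed by less than 2-fold, in opposite directions. They were at 1384 CPM in basal-like and 1686 in luminal-like cells of GR18, and at 1395 and 1337 CPM in GR19. At least 2-fold differences in both libraries were found for 0 of 29 members in either direction, where 2.52% of all genes were higher in basal-like and 1.68% higher in luminal-like cells. By intervals, B2m, Gbp2, Irf1 and Psmb8 were higher in basal-like cells of both libraries (4 of 39, 5.68% of all genes) and Ifit1 and Oas2 in luminal-like cells (2 of 39, 4.07% of all genes). Psmb8 was 159 CPM in basal-like and 88.6 in luminal-like cells of GR18, and 129 and 75.7 in GR19. Ifit1 was 37.8 and 78.3 CPM in GR18, and 30.4 and 48.9 in GR19. Of the 205 Ifit1 UMIs in luminal-like cells of GR18 at least 25 came from a single cell of cluster D.

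A further split separated clusters with a low sum of the 10 cycling markers (B at 638 CPM and D at 648) from those with a high sum (C at 2851, F at 3256 and E at 2780), here called resting and cycling. Among luminal-like cells 29 of the 32 members with at least 20 CPM were higher in resting than in cycling cells in both SOX4KO libraries, against 32.2% of all genes, and 6 of 32 were at least 2-fold higher in both, against 0.970% of all genes. A member could pass the minimum through the resting cells alone: of the 6, Irf7 and Dtx3l reached 20 CPM in the cycling cells of both libraries, and Ifit1, Oas2, Xaf1 and Parp14 did not. Ifit1 was 141 CPM in resting and 22.4 in cycling luminal-like cells of GR18, and 99.6 and 18.5 in GR19. The resting value of GR18 includes the cell of cluster D with at least 25 Ifit1 UMIs. Irf7 was 143 and 65.8 CPM in GR18, and 158.5 and 54.2 in GR19. Among basal-like cells 19 of 28 members were higher in resting cells in both libraries, against 36.1% of all genes, and 0 of 28 reached 2-fold, against 1.48%. Irf7 was again higher in the resting cells there, at 126 against 65.0 CPM in GR18 and 86.2 against 59.7 in GR19. Clusters of 1 library are not replicates, and these differences were not tested. With a pseudocount of 10 CPM or a minimum of 50 CPM, both chosen after seeing the data, the count of 6 became 3.

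**Figure D4:**
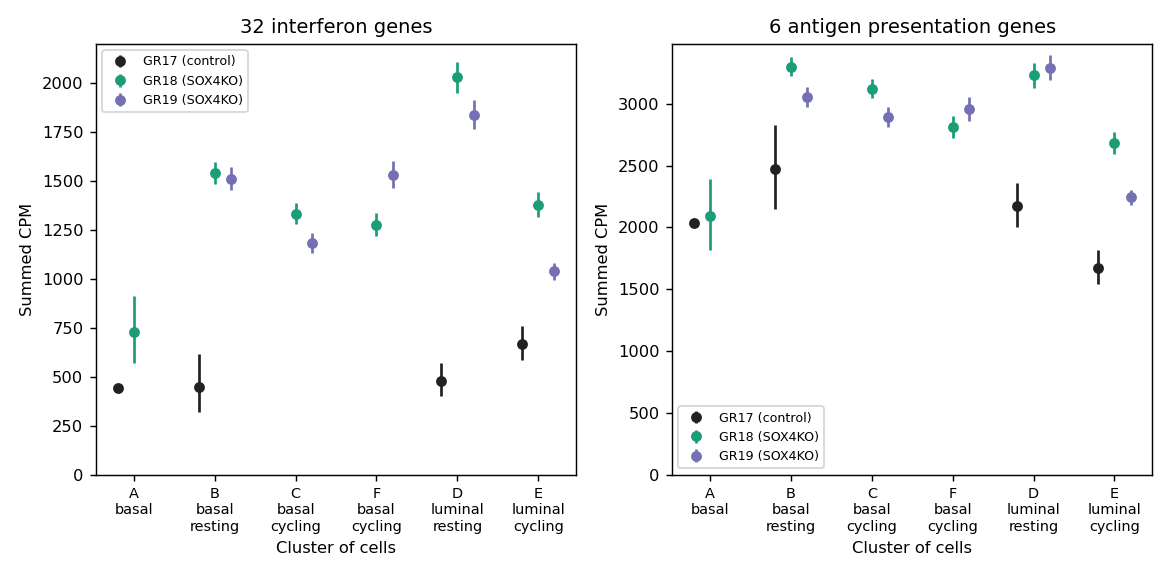
Summed CPM of the 32 interferon genes (left) and the 6 antigen presentation genes (right) by cluster and library, with 95% exact Poisson intervals. In clusters that hold cells of all 3 libraries the control (black) is lowest, and on the left the resting luminal cluster D is the highest of each SOX4KO library, at 2030 CPM in GR18 and 1838 CPM in GR19.

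Seen cell by cell, UMIs of the interferon genes were found in most cells of every library. The median was higher in the SOX4KO libraries, where a few cells lay far above the rest. Each cell was thinned to 5000 UMIs, which left out 8, 4 and 4 shallower cells of GR17, GR18 and GR19. The median cell had 2 UMIs of the 32 interferon genes in GR17 and 6 in GR18 and GR19. Cells without any such UMI made up 15.5% of 361 cells in GR17, 0.822% of 365 in GR18 and 2.23% of 358 in GR19. The share with at least 1 UMI was thus 84.5%, 99.2% and 97.8%, and 98.4%, 99.5% and 100% before thinning. For Irf7 alone the share of cells with a UMI was 2.77%, 32.9% and 29.9% in GR17, GR18 and GR19 (exact binomial intervals 1.34% to 5.04%, 28.1% to 38.0% and 25.2% to 34.9%), and 7.59%, 65.3% and 62.2% before thinning, at median depths of 19845, 20525 and 21877 UMIs. No cell type that lacks Irf7 was defined here, so how much of these shares is free RNA was not tested. The same well numbers recur in all 3 plates as positions and do not mark shared cells.

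**Figure D5:**
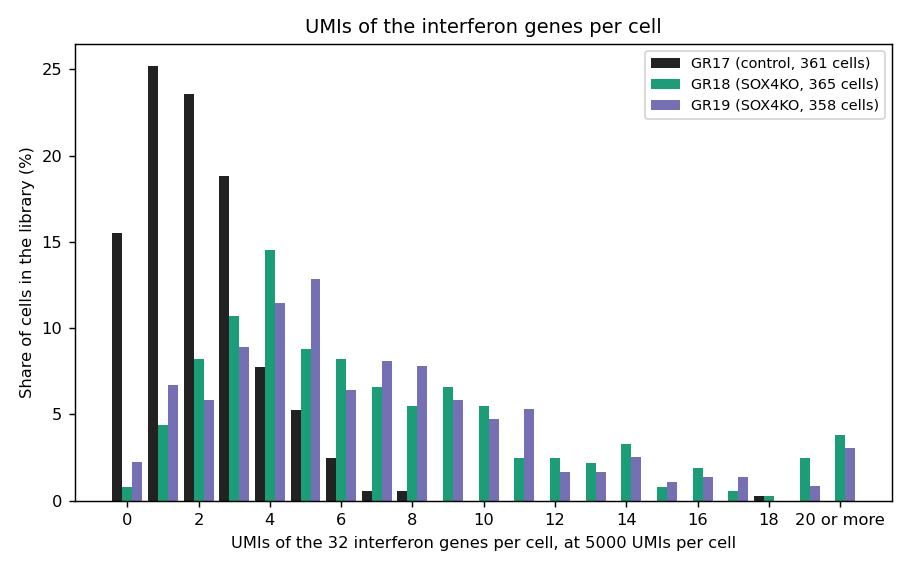
Share of cells in each library by the number of UMIs of the 32 interferon genes per cell, after thinning to 5000 UMIs per cell, with the last bar for 20 or more. Control cells (black) lie mostly between 0 and 4 UMIs, and the SOX4KO cells (green and purple) have a median of 6 and a tail that reaches 92 in GR18 and 84 in GR19.

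The upper tail held cells of both classes. At least 20 such UMIs, a limit chosen after the values were seen, were found in 0 of 361 cells of GR17, in 14 of 365 of GR18 (5 basal-like and 9 luminal-like) and in 11 of 358 of GR19 (5 and 6). The highest cell of GR18, in cluster D, had 92, of which 25 were Ifit1, 11 Irf7 and 8 Isg15. The highest of GR19, in cluster E, had 84, of which 18 were Rsad2, 11 Ddx58 and 9 Ifi44. In GR17 the highest had 18, of which 7 were Ifit1. Across cells the UMIs of the interferon genes and those of the antigen presentation genes had a Spearman rho of 0.08 in GR17 (361 cells), 0.38 in GR18 (365) and 0.46 in GR19 (358), given as a description of counts that share a library and a depth. The 6 cells of cluster G in GR19 carried 12835 CPM of antigen presentation genes, of which 1 cell held 306 UMIs.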

How the data were processed

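Bulk RNA-seq of 5 lines and plate-based single-cell RNA-seq of 3 libraries of PyMT tumor organoids were used. The deposited bulk values were raw read counts per gene, which the authors obtained from a directional kit with STAR 2.4.2a and HTSeq, and the deposited single-cell values were unique barcode counts per gene and well. The builds NCBIM37 and mm9 were named in the submitters' processing notes, and the strand setting of the counting and the aligner of the single-cell reads were not given in the sources used here. Coordinates printed are those of the RefSeq table (GRCm38.p6) and were joined to no file.

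Reads outside genes (71.6% to 83.9% of the total lines, most of them aligned to several places) stayed out of library sizes. Ensembl identifiers were matched to symbols for 36345 of 38293. Bulk counts were filtered with filterByExpr, TMM-scaled and tested with edgeR 4.0.16 (glmQLFit and glmQLFTest) in R 4.3.3, with Benjamini-Hochberg adjustment over 11682 genes and calls at an adjusted p under 0.1, and with DESeq2 1.42.0 as an alternative. Single-cell wells with at least 1000 UMIs were kept. UMIs were summed per library, scaled to CPM without spike-ins and compared on log2(CPM + 1), in genes with at least 20 CPM on average where a 2-fold rule was used. Clusters came from Seurat 5.3.0 (10 principal components, resolution 0.5). No doublet caller was run, and wells over 2 times the median UMIs of their library (8 to 20 per library) were left out as an alternative. In single cells a ratio, interval or floor covers counting error only.

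The 39 genes and the lists were chosen with earlier results of these data known. Every member was named once by role. Full bulk statistics were given for members called and, in each role, for those with the highest mean CPM and the largest fold change, other pathway genes were named where called or where they were ligands, receptors or transducers, and in single cells members with at least 20 CPM were named. In bulk 120 of the 123 pathway genes matched a symbol. Scripts were tested on simulated data. Some genes of the lists are not reported here.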

Additional observations from a re-analysis of the deposited data

Results flagged for a closer look

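In 15 of the 39 genes every bulk SOX4KO line lay below both bulk control lines while both single-cell SOX4KO libraries lay above the single-cell control. The difference between the data types was not tested, and since the labels do not link the single-cell libraries to the bulk lines, data type, line and culture cannot be told apart. On the log2 scale the bulk fold changes of these genes were -0.82 for Dhx58, -1.05 for Irf7, -1.66 for Oas2, -1.21 for Oasl1, -1.27 for Cmpk2, -1.34 for Bst2 and -0.83 for Rtp4. They were -0.73 for Parp9, -0.77 for Parp12, -1.58 for Gbp3, -0.77 for Psmb8, -1.002 for Tap1, -0.55 for H2-K1, -0.75 for H2-D1 and -0.77 for Lgals3bp. With the overlap of lines in bulk set aside, 35 of 39 genes had a bulk log2 fold change below 0 and both single-cell intervals above the control. The share of all genes that meet either joint rule was not counted. Taken singly, the bulk SOX4KO lines lay below both controls for 17.9% of all genes. The bulk log2 fold change was below 0 for 5741 of 11682 genes. Both single-cell intervals lay above the control for 9.37% of all genes with a UMI. The median difference over all 39 genes in single cells, on the log2(CPM + 1) scale, was 1.47 in GR18 and 1.60 in GR19.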

How the results depend on the processing

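Limits: the single-cell control was 1 library, and the bulk groups were 2 and 3 lines with SOX4KO lines that differed among themselves, and the number of members called rested on which lines were included. No paired analysis was possible because the lines are separate lines and their numbers follow only the order of the samples. The median log2 fold change of the 39 genes stayed below 0 in every alternative run, from -1.27 to -0.49, and 0 members were called higher in any. Members called lower (1) were 0 at an adjusted p under 0.05, 7 with DESeq2, 3 with upper quartile factors and 26 with no filter beyond 1 count. With a SOX4KO line left out they were 0 to 28. All genes called lower were 113 at 0.05, 323 with DESeq2 and 281 with upper quartile factors, each of 11682. With no filter they were 678 of 17930. All genes called (733) were 354 at 0.05 and 1686 with no filter, and 56 to 1006 with a line left out. Other pathway genes called higher (1) were 0 at 0.05, 3 with DESeq2 and 5 with no filter, and 0 to 3 with a line left out, and those called lower (7) were 1 at 0.05 and 29 with no filter, and 0 to 25 with a line left out. The cause of these shifts was not tested. Of single genes, the sign turned for Ifit2 without WT3 (-0.12) and H7 (-0.88), with a range of -0.88 to 0.56 over lines left out, Herc6 without WT1 (0.29), M4 (0.31) and H4 (0.29), range -1.22 to 0.31, Parp14 without WT1 (0.03) and M4 (0.078), range -0.89 to 0.078, and Psmb9 without M4 (0.11) and H4 (0.03), range -0.53 to 0.11. Of 528 single-gene comparisons 422 kept sign and side of the threshold.

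In single cells the members with a 2-fold difference (15 of 25) were 6 of 14 at 50 CPM and 12 of 22 with either SOX4KO library left out. All such genes (141 of 6303) were 85 of 6303 with a pseudocount of 10 CPM and 62 of 3373 at 50 CPM. With a library left out they were 223 of 6281 and 202 of 6289. The share of UMIs on the members without mitochondrial genes and Rn45s was 0.308%, 0.572% and 0.573% in GR17, GR18 and GR19, and in GR18 it was 0.488% without wells over 2 times the median. Shares of cells with a UMI before thinning were 98.4% in GR17 and 100% in GR19 for the 32 interferon genes, and 7.59%, 65.3% and 62.2% for Irf7. Resting against cycling luminal-like cells gave 3 with either alternative. The 0 members 2-fold apart between classes stayed 0 throughout the alternatives run. Bulk depth of 3050323 to 4678497 reads limits genes under a few CPM.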
